A study of Homo sapiens with 5 samples.

Results

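In H295R/TR SF-1 cells, 239 genomic sites were precipitated by the Millipore anti-SF-1 antibody at both SF-1 dosages and were absent from both peak lists of the Perseus antibody. These constant Millipore-only sites were chosen by list membership alone. Each was a peak of the basal Millipore list that shared at least 1 bp with a peak of the overexpressed Millipore list and overlapped no peak of the basal or overexpressed Perseus lists. They made up 239 of 4393 basal Millipore peaks (5.44%), out of 30372 peaks in the 4 lists together. Presence in the lists, and the ranks in the Millipore lists, therefore describe how the sites were selected and carry no test. The word constant refers to presence in both Millipore lists, which give no signal strength. Sequence content and position relative to genes were not part of this rule. The rule and the measures were, however, chosen with earlier results of these data known.

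The H295R line derives from a human adrenocortical tumor and makes steroid hormones, and its derivative H295R/TR SF-1 produces extra SF-1 from a transgene when doxycycline is added. Chromatin came from cells without doxycycline (basal) and from cells treated for 3 days (overexpressed), and both groups carried the transgene. Each peak list was called on 3 pooled libraries, so that every group is 1 list of 4393 (basal Millipore), 11910 (overexpressed Millipore), 6616 (basal Perseus) or 7453 (overexpressed Perseus) peaks, with no replicate error and unknown read depth. The 2 input libraries have no peak list and were not analysed here, and peak lists alone cannot check the cell line against its markers. All intervals below are 95% intervals over peaks taken as independent, and they cover counting error only.

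SF-1, encoded by NR5A1, belongs to the nuclear receptors, binds DNA mainly as a monomer and controls the genes of steroid synthesis. Neuron-restrictive silencer factor (NRSF, also called REST) is a zinc finger repressor that keeps neuronal genes off in non-neuronal cells. It recognizes a long composite element made of a left and a right arm set a fixed distance apart, and recruits corepressors and histone-modifying enzymes there.

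Of the 239 constant Millipore-only sites, 39 held the NRSF/REST consensus, among them the best-ranked ones. Its left arm is TTCAGCACC and its right arm GGACAGCGC, separated by 2 free bases and followed by a final C. Both strands were searched, allowing 4 mismatches at the 19 fixed positions. The following best matches are shown because they belong to the 10 best-ranked sites with the consensus, together with SST and SNAP25 so that each group of neuronal genes described later has an example. They are hg19 sequences read in the direction of the element, with capitals at the fixed positions that match the consensus and lower case at mismatches and at the free bases.
NPAS4 (chr11:66189262-66189282, minus strand): TTCAGaACCatGGACAGaGCC
chromosome 9 intron (chr9:128845137-128845157, plus strand): TgCAGtACCatGGACAGaGgC
ZIM2-AS1 intron (chr19:57149489-57149509, plus strand): TTCAGCACCacGGACAGCcCC
LHX2 (chr9:126872757-126872777, plus strand): aTCAGCACCgcGGACAGCatC
LIN28A (chr1:26735188-26735208, plus strand): TTCAGCACCgtGGACAGaGCt
SHANK2 intron (chr11:70496544-70496564, plus strand): TTCAGCACCctGcAgAGaGCC
FAM24A (chr10:124671577-124671597, plus strand): TTCAGCACCttGGcCAGtGCC
PNPLA6 (chr19:7627881-7627901, plus strand): gTCAGCACCatGGACAGgGat
HTR5A (chr7:154861790-154861810, plus strand): ggCAGCACCgtGGACAGCGCC
L1CAM (chrX:153140957-153140977, minus strand): TTCAGCACCagGGACAGCGaa
SST (chr3:187387604-187387624, plus strand): TTCAGCACCtgGGtCAGCGCt
SNAP25 (chr20:10200320-10200340, plus strand): TTCAGCACCggGGACAGCGgt

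The site within the first intron of NPAS4, 769 bp downstream of its transcription start site (TSS), held 5 matches that do not overlap each other, all on the minus strand. Neighbouring matches began 43, 40, 38 and 38 bp apart. The stretch below is shown on the plus strand because this peak, rank 2 in both Millipore lists, held more matches than any other of the 239 sites, and capitals mark the 5 matches in full.
NPAS4 intron (chr11:66189144-66189393, plus strand): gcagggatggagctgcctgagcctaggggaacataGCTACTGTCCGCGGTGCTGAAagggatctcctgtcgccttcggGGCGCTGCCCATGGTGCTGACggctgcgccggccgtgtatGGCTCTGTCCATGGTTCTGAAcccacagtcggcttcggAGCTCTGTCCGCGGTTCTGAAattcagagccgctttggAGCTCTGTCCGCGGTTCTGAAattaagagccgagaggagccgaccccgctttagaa

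More than 1 match was a common feature of the sites with the consensus. There were 18 sites with 1 match, 15 with 2, 3 with 3, 2 with 4 and 1 with 5, which gave 70 matches in 39 sites. In 19 of the 21 sites with more than 1 match, all matches lay on the same strand, and LHX2 and PNPLA6 were the exceptions. Neighbouring matches began 21 to 65 bp apart, with a median of 40 bp over 31 distances. Of the 5 sites with the consensus that were constant and also found with Perseus, 4 had more than 1 match. No peak did so among the 5 with the consensus in the basal Millipore list alone or the 2 among constant Perseus-only sites.

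The closest match to NRSF/REST divided the constant Millipore-only sites into separate groups. A best match with 1 mismatch was found in 4 sites, with 2 in 17, with 3 in 12 and with 4 in 6. Only 1 site had 5 mismatches, whereas 11 had 6, 40 had 7 and 73 had 8. Among the 3474 sites of the basal Millipore list alone, no site had fewer than 3 mismatches and the most frequent value was 9, in 1377 sites.

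**Figure D1:**
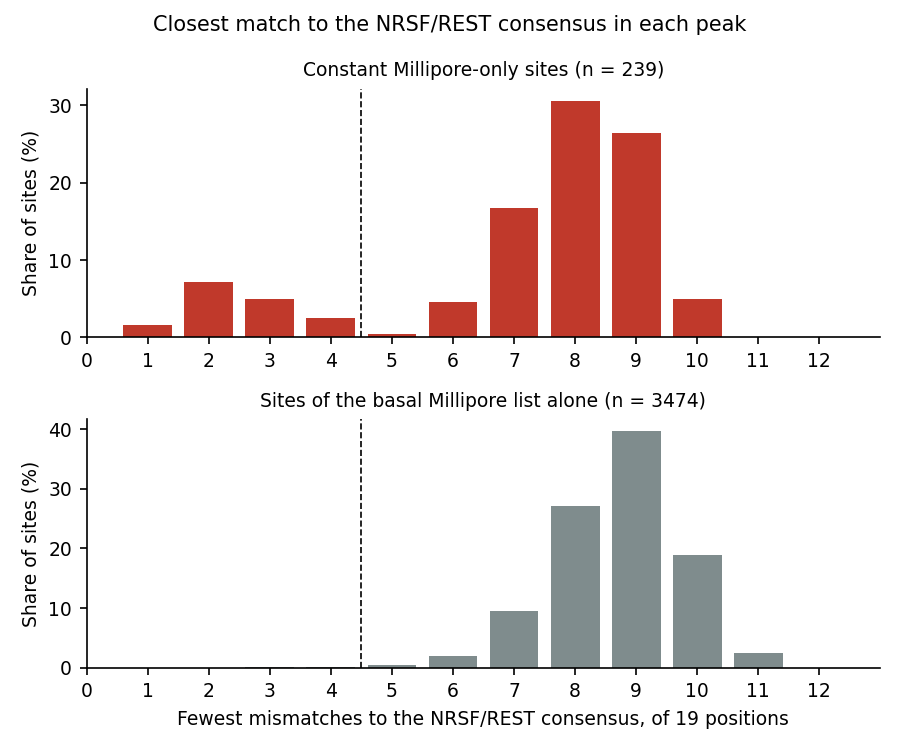
Histograms of the fewest mismatches to the 19 fixed positions of the NRSF/REST consensus (x axis) against the share of sites in percent (y axis), for the 239 constant Millipore-only sites (top) and the 3474 sites of the basal Millipore list alone (bottom). The dashed line marks the limit of 4 mismatches; 39 sites lie to its left in the top plot, around 2 mismatches, and 5 in the bottom plot.

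The NRSF/REST consensus was more frequent in constant Millipore-only sites than in every set compared. Its share was 16.3% (39 of 239, Wilson interval 12.2 to 21.5%), beside 1.12% of all 4393 basal Millipore peaks. It was 1.64% (5 of 305) in constant sites also found with Perseus, a difference of 14.7 percentage points (Newcombe interval 10.01 to 19.97). In the sites of the basal Millipore list alone it was 0.144% (5 of 3474), a difference of 16.2 points (12.02 to 21.4). In constant Perseus-only sites, defined in the same way with the antibodies exchanged, it was 0.162% (2 of 1235), a difference of 16.2 points (11.99 to 21.4). Control windows of equal width, 5 kb away on either side of the 239 sites, held it in 0 of 478, which allows a share of up to 0.628%. Thus 39 of the 49 basal Millipore peaks with the consensus were constant Millipore-only sites.

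The SF-1 consensus followed another order. It was searched without mismatch as NCAAGGNCN, in which the first and the second N are C or T and the last is A or G. It was present in 60 of 239 constant Millipore-only sites (25.1%, 20.03 to 31.0%), beside 16% of all basal Millipore peaks and 1.46% of the windows 5 kb away (7 of 478). The excess over these windows was 23.6 points (18.3 to 29.6). Constant sites also found with Perseus held it more often, in 174 of 305 (57.0%), and the difference was -31.9 points (-39.4 to -23.8). In the 200 sites without NRSF/REST, a division made after seeing the data, the SF-1 consensus was in 59 (29.5%). This was a difference of -27.5 points (-35.6 to -18.8) from constant sites also found with Perseus. The sites of the basal Millipore list alone held the SF-1 consensus less often than the 239 sites, in 7.63% (265 of 3474). The difference was 17.5 points (12.3 to 23.4). For constant Perseus-only sites the share was 21.2% (262 of 1235), and the interval of the difference of 3.89 points included 0 (-1.71 to 10.1).

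**Figure D2:**
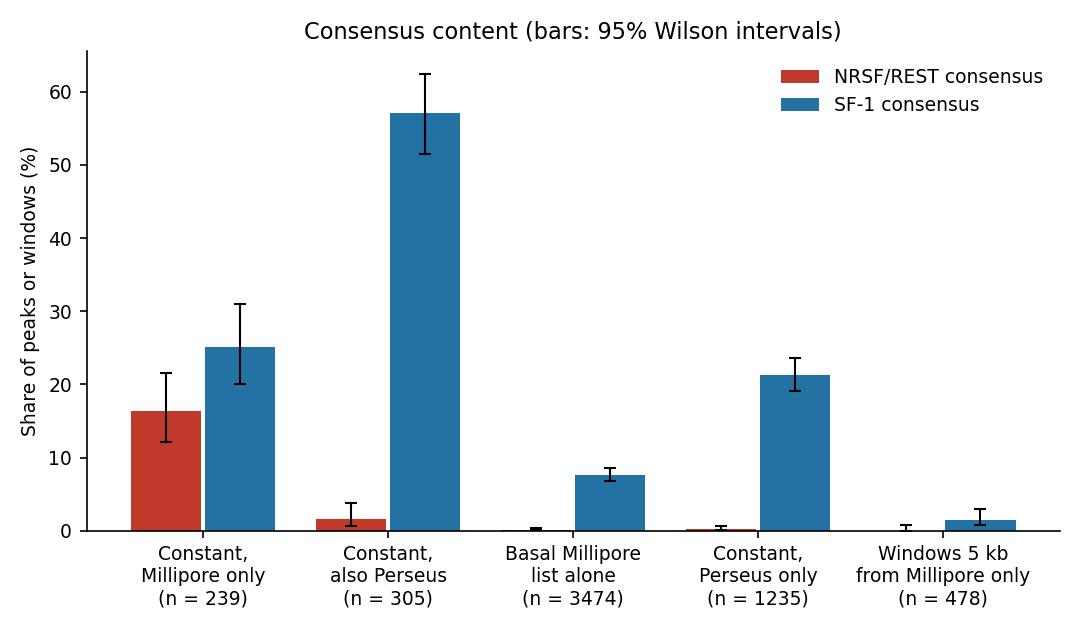
Share of peaks or windows in percent (y axis) with the NRSF/REST consensus (red) and the SF-1 consensus (blue) in 4 sets of sites and in the windows 5 kb from the constant Millipore-only sites (x axis), with 95% Wilson intervals. NRSF/REST reaches 16.3% in constant Millipore-only sites and at most 1.64% elsewhere, whereas SF-1 is highest, at 57.0%, in constant sites also found with Perseus.

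Both consensus sequences occurred together in 1 site. This was the peak in an intron of FAM24A, rank 16 in the basal and 10 in the overexpressed Millipore list, 1524 bp downstream of the TSS. The SF-1 consensus was thus in 1 of 39 sites with NRSF/REST (2.56%) and in 59 of 200 without it (29.5%), a difference of -26.9 points (-33.9 to -14.8). The remaining 141 of the 239 sites held neither sequence in the form searched. With 1 mismatch allowed, the SF-1 sequence was present in 134 of 239 sites (56.1%), and its share in windows was not computed. At this setting the difference was 32.0 points (25.5 to 38.3) from the basal Millipore list alone. It was -28.9 points (-36.1 to -21.3) from constant sites also found with Perseus and 7.40 points (0.478 to 14.1) from constant Perseus-only sites.

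The 5 best-ranked sites with the SF-1 consensus are shown to allow comparison with the NRSF/REST sequences above. They are hg19 sequences, read in the direction of the consensus. Capitals mark the match reported for each site, with 10 bases on either side. In the SDK2 sequence a further match on the same strand, CCAAGGTCA, overlaps the capitals and continues in lower case.
FAM24A (chr10:124671760-124671788, minus strand): ctctttgttcTCAAGGCCAccagaaataa
ST8SIA1 intron (chr12:22271393-22271421, plus strand): gtgtcacactCCAAGGTCAggtgtaattg
XYLT1 (chr16:17364113-17364141, plus strand): ttgacgcagcCCAAGGCCAcctagcctgg
SDK2 (chr17:71693396-71693424, plus strand): tggccttcccTCAAGGCCAaggtcatgct
ACTL7B (chr9:111113667-111113695, minus strand): tctgcaatttTCAAGGCCGtagacaaggc

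The ranks of these 5 sites spread widely. The FAM24A site has been described above, the site in an intron of ST8SIA1, a ganglioside-forming sialyltransferase, had ranks 60 (basal) and 78 (overexpressed), and the site in an intron of XYLT1, a xylosyltransferase of proteoglycan synthesis, 157 and 48. The next site, 52916 bp upstream of SDK2, an adhesion molecule of the immunoglobulin family, had ranks 822 and 1025. The intergenic site nearest ACTL7B had ranks 1204 and 1402.

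Elements close to NRSF/REST but with another distance between the arms were present in 4 sites that missed the consensus as searched. Both arms were looked for in the same order and strand, with at most 1 mismatch in each arm and 0 to 20 bases between them. Such pairs were found in 23 of the 239 sites (9.62%, 6.50 to 14.0%), in 0.637% of all basal Millipore peaks and in 0 of 478 windows. The usual spacing of 2 bases was found in 17 sites. The pairs of the 4 sites without the consensus are shown because their spacing of 1, 6, 7, 9 or 10 bases is not covered by the search with fixed spacing. Capitals are arm bases that match, and lower case letters are mismatches and the bases between the arms.
ATP2B2 intron (chr3:10502073-10502099, minus strand, spacing 9): gTCAGCACCtcagtgtgtGGACAGCtC
INSM2 (chr14:36004549-36004576, plus strand, spacing 10): aTCAGCACCcgcaggccagGGACAGCtC
INSM2 (chr14:36004585-36004603, plus strand, spacing 1): aTCAGCACCcGGACAGCGC
CPLX2 (chr5:175223985-175224009, plus strand, spacing 7): TcCAGCACCatctcggGGACAGCtC
MAPK8IP2 upstream (chr22:51038682-51038705, plus strand, spacing 6): gTCAGCACCccgtggGGACAGCtC
MAPK8IP2 upstream (chr22:51038708-51038732, plus strand, spacing 7): aTCAGCACCcgacggcGGACAGCtC

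These 4 sites were picked by their pairs of arms, not by gene. The first lies in an intron of ATP2B2, a plasma membrane calcium pump, and had ranks 32 and 33. The INSM2 site, in the coding exon of this zinc finger factor gene, had ranks 7 and 113 and held pairs at 2 spacings. The CPLX2 site, in an intron of a complexin gene acting in synaptic vesicle fusion, had ranks 584 and 326. The site 547 bp upstream of MAPK8IP2, a kinase scaffold, lay in an intron of CHKB and had ranks 898 and 2946. Irrespective of the other arm, the left arm was found in 14 of 200 sites without the consensus (7.00%) and in 33 of 478 windows (6.90%), while the right arm was found in 10 of 200 (5%) and 9 of 478 (1.88%). These counts include the 4 sites with both arms.

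Rank in the 2 Millipore lists differed with the sequence held, which is given as a description because the lists define the sites. The quantity behind the ranks is not stated, and rank 1 is best. Sites with NRSF/REST had a median rank of 42 (1 to 4142) in the basal and 124 (2 to 10866) in the overexpressed list. Sites with SF-1 alone had medians of 1689 (60 to 4377) and 4178 (48 to 10787), and sites with neither sequence 2028 (7 to 4385) and 3839 (2 to 11865). Of the 10 best-ranked basal Millipore peaks, 7 were constant Millipore-only sites and 6 of these held NRSF/REST. Of the 50 best-ranked, 23 were constant Millipore-only sites and 21 held it. The ranks of the 239 sites in the 2 lists had a Spearman rho of 0.37 over sites.

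**Figure D3:**
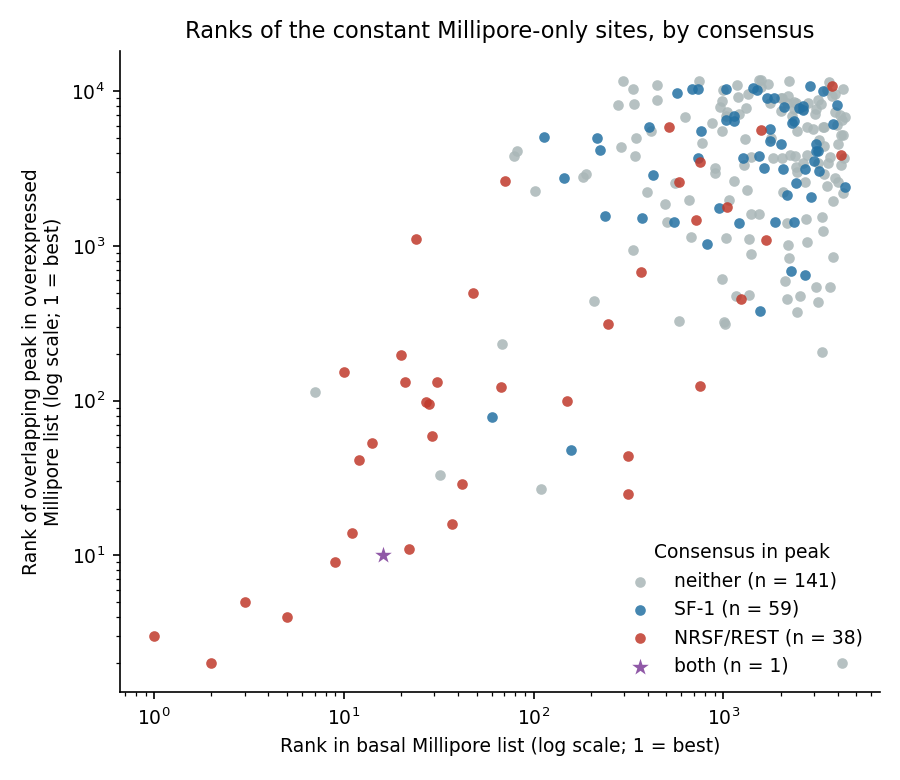
Each point is 1 of the 239 constant Millipore-only sites, with its rank in the basal Millipore list (x axis, log scale) against the rank of the overlapping peak in the overexpressed Millipore list (y axis, log scale), colored by the consensus held. The 38 sites with NRSF/REST alone (red) fill most of the lower left corner of best ranks, the 59 with SF-1 alone (blue) lie mainly at ranks above 500, and the star is the FAM24A site with both.

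The sets also differed when only the best-ranked peaks were kept. Among the 1098 best-ranked basal Millipore peaks, NRSF/REST was in 34 of 99 constant Millipore-only sites (34.3%), in 5 of 166 constant sites also found with Perseus (3.01%) and in 0 of 660 of the basal Millipore list alone, which allows up to 0.455%. The SF-1 consensus was in 21 of 99 (21.2%), 99 of 166 (59.6%) and 76 of 660 (11.5%) of these, respectively. This restriction by rank was chosen after seeing the data, and it did not make ranks equal between the sets. The best rank was 38 in the basal Millipore list alone and 1 in constant Millipore-only sites with NRSF/REST. In the overexpressed Millipore list, 88 of 11910 peaks held NRSF/REST. Of these 88, 38 were among the 238 partners of constant Millipore-only sites. The Perseus lists were not without peaks with NRSF/REST, with 12 of 6616 in the basal and 20 of 7453 in the overexpressed list.

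The position of the best match within the peak was measured from the peak centre, and can be no larger than the peak width allows. The distance from the peak centre to the best match had a median of 28 bp for NRSF/REST (2 to 100 bp, 39 sites) and of 32.5 bp for SF-1 (0 to 124 bp, 60 sites). Peak borders fall on a grid of 50 bp, and the peaks were 99 to 599 bp wide with a median of 149 bp. Sites with NRSF/REST were wider, with a median of 299 bp, than those with SF-1 alone, with a median of 149 bp, and a wider peak offers more room for a match. The windows compared had the same widths, but the sets of sites compared were not matched for width. The mean width was 196 bp in constant Millipore-only sites and 216 bp in constant sites also found with Perseus. It was 145 bp in the basal Millipore list alone and 218 bp in constant Perseus-only sites. The part of width in the differences in consensus content was not tested.

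**Figure D4:**
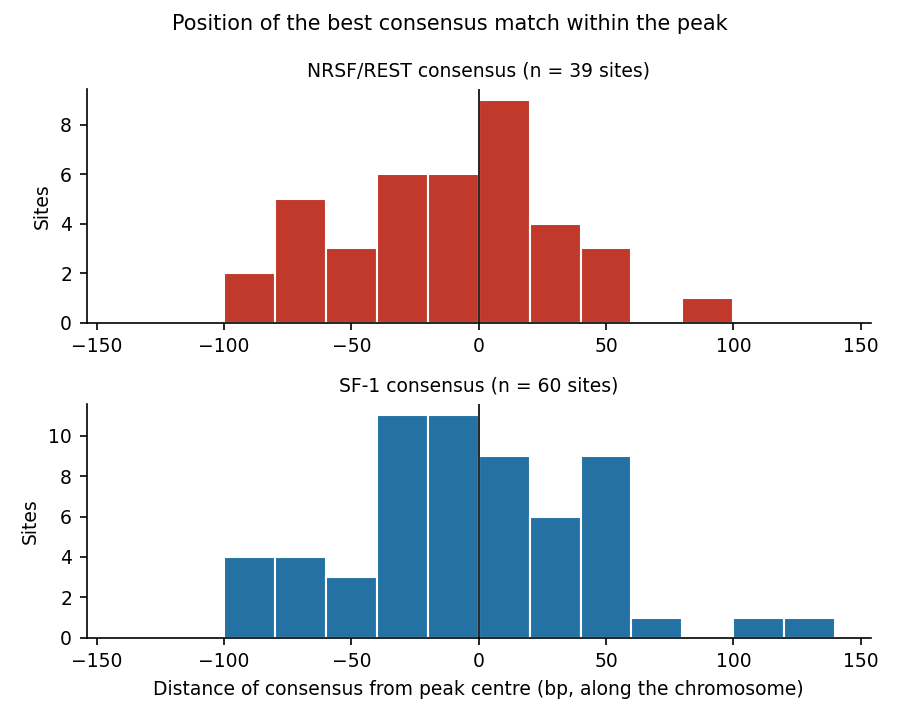
Histograms of the distance in bp between the centre of the peak and the best match (x axis) for the 39 sites with NRSF/REST (top) and the 60 with SF-1 (bottom), as numbers of sites in bins of 20 bp (y axis). Both groups surround 0, and the best NRSF/REST match of each site lies within 100 bp of the centre.

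The base composition of the constant Millipore-only sites lay between that of the sets compared. Their median GC content was 51.6%, against 45.0% in the windows 5 kb away, 57.5% in constant sites also found with Perseus, 44.3% in the basal Millipore list alone and 60.6% in constant Perseus-only sites. Sites with NRSF/REST alone had a median of 54.3% and those with SF-1 alone 50.3%. The part of base composition in the differences in consensus content was not tested. Words of 7 bases led back to the same elements. CAAGGTC, part of the SF-1 consensus, and CAGCACC and TCAGCAC, from the left NRSF/REST arm, each occurred on either strand in 48 of 239 sites (20.1%), and in 3.97%, 4.39% and 3.35% of windows, respectively. In the 200 sites without NRSF/REST, CAAGGTC remained in 24.0%, CAGCACC in 6% and TCAGCAC in 7.5%. GGACAGC, from the right arm, was in 7% of these 200 sites and 3.14% of windows. GGGACAG, which overlaps the right arm, was in 11% and 2.51%, respectively.

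Other motifs differed less from the windows, and their Wilson intervals overlapped those of the windows where both were measured. No interval of the difference was computed for them. E-boxes (CANNTG) were in 66.9% of sites and 65.9% of windows, AP-1 sites (TGANTCA) in 5.44% and 4.60%, and SP1 boxes (GGGCGG) in 6.69% and 4.60%. GATA motifs (NGATAA with N as A or T) were in 13.4% of sites (9.65 to 18.3%) and 19.2% of windows (16.0 to 23.02%). A CTCF-type sequence was in 1 of 239 sites and in 0 of 478 windows. The cAMP response element TGACGTCA was in 0 of 239 sites, which allows up to 1.26%, and in 1 of 478 windows.

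The nearest protein-coding gene, by TSS, was on a list of 519 neuronal genes for 27 of the 239 constant Millipore-only sites. This share of 11.3% (7.88 to 15.9%) stood beside 7.65% for all basal Millipore peaks. Of the 20163 protein-coding genes, 2.57% were on the list, which is a share of genes and not the share expected for sites. The 11.3% exceeded the 3.93% (12 of 305) of constant sites also found with Perseus by 7.36 points (2.94 to 12.3). It exceeded the 2.59% (32 of 1235) of constant Perseus-only sites by 8.71 points (5.13 to 13.4). Distance to the TSS was not held equal in these comparisons. Within 1 kb of a TSS lay 38.5% of constant Perseus-only and 8.37% of constant Millipore-only sites. Against the basal Millipore list alone, at 7.92% (275 of 3474), the difference of 3.38 points had an interval that included 0 (-0.163 to 8.10). Among sites with their nearest TSS within 10 kb, a limit chosen after seeing the data, this difference was 14.1 points (6.10 to 26), with 10 of 57 constant Millipore-only sites near a neuronal gene.

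Neuronal genes were concentrated at the sites with NRSF/REST. The nearest gene was neuronal for 15 of 39 sites with the consensus (38.5%, 24.9 to 54.1%) and for 12 of 200 without it (6%, 3.47 to 10.2%), a difference of 32.5 points (18.3 to 48.3). The 200 sites without NRSF/REST differed from the basal Millipore list alone by -1.92 points, with an interval that included 0 (-4.62 to 2.36). This division by consensus was also made after seeing the data. The neuronal list was assembled from general knowledge with earlier results known, and its part in the contrast was not tested. The gene body nearest the site was neuronal for 16 of 39 and 15 of 200 sites, respectively.

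**Figure D5:**
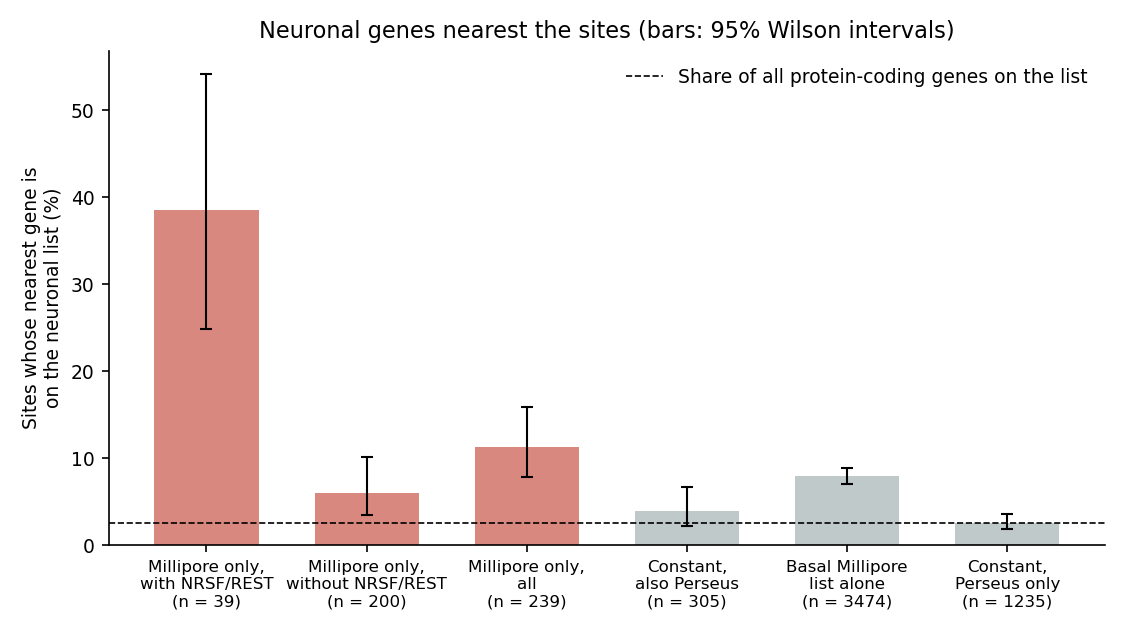
Share of sites in percent (y axis) whose nearest protein-coding TSS belongs to a gene on the neuronal list, for constant Millipore-only sites with and without NRSF/REST and in all, and for 3 other sets (x axis), with 95% Wilson intervals and a dashed line at the share of all protein-coding genes on the list. The bar for sites with NRSF/REST stands at 38.5%, and the bar for those without it at 6%.

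The 27 sites were nearest to 26 different neuronal genes with varied roles. Of these sites, 7 were nearest a gene of synaptic proteins, 6 a channel or receptor gene, 6 a gene of axon guidance, adhesion or cytoskeleton, 6 a gene for a transcription or RNA-binding factor and 2 a gene of the secretory or vesicle transport group. With NRSF/REST in the peak, these numbers were 5, 4, 2, 3 and 1. The share for synaptic genes was 2.93% (1.43 to 5.92%), beside 1.18% of all basal Millipore peaks, and in the basal Millipore list alone it was 0.979% (0.701 to 1.36%). The share for transcription and RNA-binding factors was 2.51% (1.16 to 5.37%), beside 1% of all basal Millipore peaks and 0.9499% (0.677 to 1.33%) in the basal Millipore list alone. Channel and receptor genes, also at 2.51%, stood near the 2.23% of all basal Millipore peaks, and axonal genes, at 2.51%, near 2.75%. For the secretory group the share was 0.837% (0.230 to 3.00%), beside 0.478%.

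Sites near genes of neuronal regulators included some of the best-ranked. The NPAS4 site, near the gene of an activity-dependent transcription factor of neurons, was rank 2 in both Millipore lists. A narrow peak over an NPAS4 coding exon, 1094 bp from the TSS and of basal rank 4225, also met the rule through the same overexpressed peak, so that the 239 sites had 238 partners. LHX2, a LIM homeobox factor of forebrain development, was the nearest gene to an intergenic site 108851 bp from its TSS, with ranks 5 and 4. The site in an intron of CELF4, encoding a neuronal RNA-binding protein, had ranks 149 and 100. Without NRSF/REST were the site 33 bp upstream of NEUROD4, a proneural factor (ranks 347 and 4992), and the distant site nearest BCL11A, a zinc finger factor (981 and 5546).

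Among synaptic genes, 5 of 7 sites held NRSF/REST. The site in an intron of SYT7, a calcium sensor of vesicle fusion, had ranks 67 (basal) and 123 (overexpressed). Sites in introns of DLGAP4 and DLGAP3, scaffold proteins of the postsynaptic density, had ranks 20 and 196, and 71 and 2626, respectively. SNAP25, encoding a protein that acts in synaptic vesicle fusion, had a site in its body, over an exon of SNAP25-AS1, with ranks 1687 and 1095. The site nearest CBLN1, a synapse organizer, lay 123599 bp from the TSS with ranks 515 and 5849. Of the others, the RAB3C site held the SF-1 consensus (ranks 2403 and 2545) and the CPLX2 site the spaced arms shown above.

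Of the 6 sites nearest channel and receptor genes, 3 lay within 2 kb of the TSS. The HTR5A site, 134 bp upstream of the TSS of this serotonin receptor gene, had ranks 37 and 16 and held 3 matches. The GLRA1 site, over an untranslated region 62 bp from the TSS of this glycine receptor gene, had ranks 28 and 95. The KCNH7 site, 1998 bp upstream of a potassium channel gene, had ranks 314 and 44. The SCN10A site, in an intron of a sodium channel gene 10327 bp from the TSS, held NRSF/REST but had ranks of 3725 and 10866. The other 2 sites of this group, nearest CHRNA9 and HTR6, held the SF-1 consensus and lay 18025 and 39932 bp from the TSS.

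Axonal and secretory genes were nearest to 8 sites, 3 of them with NRSF/REST. The L1CAM site, in an intron of this axonal adhesion molecule gene, had ranks 12 and 41, and the UNC5A site, in an intron of a netrin receptor gene, 24 and 1109 with a pair of matches of 1 mismatch each. The SST site, in the intron of the somatostatin gene 482 bp from the TSS, had ranks 316 and 25. The GAP43 site, which held the SF-1 consensus, lay in an intron of LSAMP, also on the neuronal list. It was 506243 bp from the GAP43 TSS and 1 bp from a Perseus peak (ranks 1633 and 3192). The CDH8 site, more distant still and without either consensus, had ranks 3343 and 1251. The sites nearest SLIT2, an axon guidance ligand (2782 and 8363), and ADGRL3, an adhesion receptor (1546 and 11821), were likewise distant, the latter 676594 bp from the TSS, and held neither consensus. In the secretory group, the MAPK8IP2 site held the spaced arms shown above. In 6 more sites the gene body nearest the peak was neuronal while the nearest TSS belonged to another gene, as in the SHANK2 intron, a gene of a postsynaptic scaffold, where the site with ranks 11 and 14 held 3 matches.

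A gene of the steroid list was nearest to 3 of 239 sites (1.26%, 0.428 to 3.62%), beside 0.455% of all basal Millipore peaks and 10 of 3474 in the basal Millipore list alone (0.288%, 0.156 to 0.529%). With 3 sites, the Wilson intervals overlapped, but no interval of the difference was computed, so this overlap does not decide whether the shares differ. STAR, the carrier of cholesterol into mitochondria, was nearest to a site 3190 bp upstream of its TSS with ranks 343 and 3839. The SCARB1 site, in an intron of this lipoprotein receptor gene, had ranks 2306 and 6921, and the distant site nearest CITED2, a transcriptional coregulator, 1045 and 7336. None of these 3 sites, of 52 genes on the steroid list, held either consensus. EHMT1, a histone methyltransferase among 16 genes listed as NRSF/REST corepressors and partners, had a site with ranks 333 and 10384, also with neither sequence. It was the 1 site of 239 nearest a gene of that list, beside 0.0911% of all basal Millipore peaks.

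Most constant Millipore-only sites lay away from promoters. Within 1 kb of a protein-coding TSS were 20 of 239 sites (8.37%, 5.48 to 12.6%), beside 4.19% of all basal Millipore peaks. Farther than 100 kb lay 69 of 239 (28.9%). That share was lower than the 43.9% (1525 of 3474) of the basal Millipore list alone. It was higher than the 17.4% (53 of 305) of constant sites also found with Perseus. The share within 1 kb was higher than in the basal Millipore list alone, at 2.91%, by 5.46 points (2.51 to 9.69), and lower than in constant Perseus-only sites, at 38.5%, by a difference of -30.2 points (-34.2 to -25.2). Against constant sites also found with Perseus, at 12.5%, the interval of the difference of -4.09 points included 0 (-9.17 to 1.22). Within 10 kb were 17 of 39 sites with NRSF/REST (43.6%) and 40 of 200 without it (20%), a difference of 23.6 points (8.06 to 39.8). In the basal Millipore list alone, 13.4% (465 of 3474) lay within 10 kb.

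Among the 20 sites near a TSS, 9 held NRSF/REST. The 10 best-ranked were those of NPAS4, HTR5A, XKR7, EPHA10, GLRA1, CELSR3, SST, CPLX2, CYB5R4 and GPR179, of which the first 7 held NRSF/REST and CPLX2 the spaced arms. The XKR7 site, in a coding exon 421 bp from the TSS, had ranks 42 and 29. The EPHA10 site, in an intron of an ephrin receptor gene, had ranks 29 and 59, and the CELSR3 site, in a coding exon of an atypical cadherin gene, 27 and 98. CYB5R4, a reductase, and GPR179, an orphan receptor of the retina, had ranks 673 and 1135, and 2195 and 1016.

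By annotation of the peak centre, 100 of 239 sites lay in introns of protein-coding genes and 81 were intergenic. These shares, 41.8% and 33.9%, stood near the 42.0% and 35.8% of the basal Millipore list alone. Introns of noncoding genes held 26 (10.9%, against 14.0% in that list) and noncoding exons 13 (5.44%, against 3.40%). Untranslated regions held 12 (5.02%, against 2.50%) and coding exons 7 (2.93%, against 2.30%). For the 39 NRSF/REST matches, the position of the match itself was an intron of a protein-coding gene in 19, intergenic in 11, an intron of a noncoding gene in 4, a coding exon in 2, a noncoding exon in 2 and an untranslated region in 1. Of the other top sites, the best-ranked basal peak was intronic to a long noncoding RNA on chromosome 9 (ranks 1 and 3), 243983 bp from the TSS of MVB12B. The ZIM2-AS1 site had ranks 3 and 5, the site 2083 bp upstream of LIN28A, which encodes a blocker of let-7 maturation, 9 and 9, and the site nearest PNPLA6, a lysophospholipase gene, 22 and 11.

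Sites just inside and outside the rule were separated by few bases. The shortest overlap with an overexpressed Millipore peak was 49 bp, the smallest step on the grid, in 25 of the 239 sites, among them sites nearest MECOM (ranks 279 and 8124) and BLM (416 and 5577). Just outside, 8 sites of the basal Millipore list alone, including those nearest CHGA (rank 3739) and HSD11B2 (rank 3846), lay 1 bp from such a peak. On the Perseus side, 4 sites, nearest PRR15, GAP43, CLIP4 and GTF2IRD1, lay 1 bp from a Perseus peak, and 23 sites overlapping one by 49 bp were left out. The median distance to the nearest Perseus peak was 42601 bp, and 18 sites had one closer than 1 kb. The nearest Perseus peak to any site with NRSF/REST alone was 1401 bp away.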

How the data were processed

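SF-1 ChIP-seq peak lists were analysed for 4 groups (2 dosages by 2 antibodies), each deposited as 1 list. According to their methods and the labels, the authors mapped Illumina reads (CASAVA 1.6, ELAND v2) to hg19 and peaks came from CisGenome v2 (SeqPeak), run on 3 pooled libraries per group against input. Each deposited list gives the chromosome, start, end, a rank and a score; the score as deposited by the authors is a constant 1000 and was not used, and the ranks ordered peaks within lists. Other units (read counts, enrichment) were not given by the authors in these lists, and the depth per sample is unknown.

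Positions were compared with the GRCh37 sequence and the GENCODE version 44 annotation lifted to it, on 24 chromosomes. Coordinates are 1-based. TSS distances were taken between the centre of the peak and the outermost annotated start of protein-coding genes. Motifs were searched on both strands, with windows of equal width 5 kb to each side as background. Shares carry Wilson and differences Newcombe intervals at 95%. Overlap, motif and distance steps were tested on simulated data. The members, gene lists and measures were chosen with earlier results of these data known, and the neuronal list was assembled from general knowledge. Named sites were the 10 of best worst rank over both Millipore lists, the 10 best with NRSF/REST, the 5 best with SF-1, sites with both, up to 25 nearest a neuronal or steroid gene, up to 10 within 1 kb of a TSS, and those at the edge of the rule; others named were chosen after their values were seen. The alternatives tried cover membership, motif stringency, TSS definition, gene assignment and windows. Repeat content was not computed because the reference sequence carries no repeat masking. Analyses used Python 3.11.15, numpy 2.4.6, pandas 2.3.3 and pysam 0.24.0.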

Additional observations from a re-analysis of the deposited data

How the results depend on the processing

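Over 19 results and 122 alternative values, no result turned its direction and none of the intervals that excluded 0 came to include it; 106 values kept their call. With the better-ranked 50% of each list, Perseus lists included, 154 sites met the rule and 39 of them held NRSF/REST (25.3%). These 154 were not a subset of the 239, because a lower-ranked Perseus peak no longer excluded a site. The DISP3 and SCN10A sites, of basal ranks 4142 and 3725, fell outside the better-ranked 50%, so the 39 were not all the same sites as before. In this setting the difference in SF-1 share from constant Perseus-only sites was 9.18 points. The difference in neuronal share from the basal Millipore list alone was 6.20 points, and the intervals of these 2 differences lay above 0. Requiring the overexpressed peak to cover 50% of the basal peak gave 6.27 and 4.71 points for the same 2 differences, again above 0. The SF-1 share was 19.7% with the core AAGGTCA and 56.1% with 1 mismatch, and the latter gave 7.40 points over constant Perseus-only sites. Counting the starts of all transcripts, 16.3% of sites lay within 1 kb of a TSS, -8.93 points from constant sites also found with Perseus. By nearest gene body, the neuronal difference from the basal Millipore list alone was 4.51 points. Of the alternatives added after seeing the data, sites with a TSS within 10 kb had a neuronal share of 17.5%, a difference of 14.1 points from the basal Millipore list alone, and the share was 38.5% with and 6% without NRSF/REST. The cause of these shifts was not tested. No paired analysis was possible because each group is 1 list called on pooled libraries, and no replicate could be left out. Depth and replicate error behind each list are unknown, so absence from a Perseus list cannot be told apart from a peak below its calling threshold.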
